A study of Mus musculus with 15 samples.

Results

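Smooth muscle contractile genes are described here in single cells of the mouse striatum, through 9 genes: Acta2, Tagln, Myh11, Myl9, Csrp1, Lmod1, Tpm2, Mylk and Filip1l. They are 9 of the 15932 genes of the deposited count table. The 9 were chosen because earlier results of the same data placed them higher after olanzapine in the cell class the authors labelled other, so the olanzapine values below describe that choice: they carry no p-value, and counts of the 9 called in that contrast are a description from which nothing is read. The questions asked were in which cell classes the genes occur, and whether a difference between drugs lies in the number of cells that carry a gene or in its level per carrying cell.

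Smooth muscle cells wrap arteries and arterioles and set the width of the vessel. Their force comes from smooth muscle myosin pulling on actin filaments, and it is switched on when myosin light chain kinase, activated by calcium and calmodulin, phosphorylates the regulatory light chain of myosin. In the brain these cells, together with the pericytes of capillaries, form the mural layer of the vessels around the endothelium.

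All 15 animals were male C57BL/6J mice, an inbred strain, bought at 8 weeks of age and habituated for about 1 week. By the labels, 5 were given placebo, 5 haloperidol (an implanted pellet) and 5 olanzapine (mixed into the food), each for 28 to 29 days. Haloperidol is a typical antipsychotic that blocks dopamine receptors, and olanzapine an atypical one that blocks serotonin and dopamine receptors. The route of delivery changed together with the drug, so the 2 cannot be told apart, and the labels do not say how placebo was given. Cells of each mouse were loaded on a well of their own of a droplet system that counts unique molecular identifiers (UMIs, 1 per captured RNA molecule) from the 3' end. The protocol gives 500 cells loaded per mouse, but the analysed cells reached 1184 in olanzapine 3, 626 in haloperidol 3 and 580 in olanzapine 5, so that number does not hold for every mouse.

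The table held 5581 cells, with 621 to 40783 UMIs and a median of 2746 UMIs per cell. A total of 211 of the 514 cells of placebo 5 (41.1%) carried the barcode of a cell of placebo 2 (101 cells) or of placebo 3 (110 cells). The shared barcodes carried the same class in 101 and 109 of the cells, and the cell in placebo 5 always had fewer UMIs, with a median of 32.8% and 30.8% of its partner's. Only 15 other barcodes occurred in more than 1 mouse. These 211 cells, 25 of them in the class other, were left out of placebo 5, and results with them are given where they differ. They are called copied cells or copies below as a short name, and how they arose was not tested. In olanzapine 2, the automatic threshold of a doublet caller marked 38 of 128 cells, with all 12 cells of its class other among them, so doublet calls were not used for removal and results without those cells are given too. The analysed cells numbered 5347, of which 524 belonged to the class other. In that class 13 mice had at least 10 cells and were compared: 5 placebo, 4 haloperidol (2 to 5) and 4 olanzapine (2 to 5). Haloperidol 1 had 9 such cells and olanzapine 1 had 8. The 13 mice held 12 to 95 cells and 42881 to 323053 UMIs in the class other, so for single genes in the smaller libraries 1 UMI or 1 cell can set the value.

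The 9 genes lie on 6 chromosomes of the mouse genome (build GRCm38, GENCODE annotation) and all are protein coding. Acta2, smooth muscle alpha-actin, the actin of the contractile filament, is at chr19:34241090-34255590. Tpm2, beta-tropomyosin, which lies along actin, is at chr4:43514711-43523765. Tagln, transgelin, an actin-binding protein, is at chr9:45929619-45936058. Lmod1, leiomodin, which starts new actin filaments, is at chr1:135324807-135368065, and Csrp1, a LIM-domain protein of the actin cytoskeleton, lies 352 kb from it at chr1:135720061-135752232. Of the myosin side, Myh11, the smooth muscle myosin heavy chain, is at chr16:14194535-14291372. Myl9, the regulatory light chain, is at chr2:156775420-156781658, and Mylk, the kinase that phosphorylates it, is at chr16:34745210-35002420. Filip1l, a relative of a filamin-binding protein, is at chr16:57353093-57573126. In 4 of the 9 (Tagln, Lmod1, Mylk, Filip1l) the annotation holds another gene on the opposite strand of the same span, Cmss1 around Filip1l among them. Whether the counting used strand is not given in the sources used here.

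Many smooth muscle genes carry CArG boxes, the sites of serum response factor, in their promoters. The RefSeq promoter table of build GRCm38.p6 (250 bases before to 50 after each start) held 9 promoters of 7 of the genes, and Tagln and Myh11 were not matched. The CArG box was searched as the 10-base consensus of that name, which reads alike on both strands. An exact box was present in 2 of the 9 promoters, against 1.629% of all 32851 promoters, and an exact box or one with 1 changed base in its 6 middle bases in 3 of the 9 (with Acta2), against 9.984%. The windows of Myl9 and Filip1l are printed to show the boxes of the 2 promoters with an exact match. The box is in capitals with 20 bases on each side, 5′ to 3′ on the plus strand, and each window ends before the start of transcription.
Myl9, exact, chr2:156775283-156775332: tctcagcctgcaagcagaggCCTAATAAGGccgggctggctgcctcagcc
Myl9, 1 changed base, chr2:156775345-156775394: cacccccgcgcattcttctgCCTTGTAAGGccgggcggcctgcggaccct
Filip1l, exact, chr16:57549160-57549209: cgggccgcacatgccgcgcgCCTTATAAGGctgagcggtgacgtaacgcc
The Filip1l box belongs to the inner of its 2 listed starts, within the span of the gene. These matches describe letters only; no binding was measured.

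Across the 7 deposited classes, the genes fell into a set found almost wholly in the class other and a set shared with other cells. Acta2 (98.0% of its UMIs), Tagln (98.1%), Myh11 (99.1%), Lmod1 (98.8%), Mylk (97.3%) and Myl9 (96.8%) were concentrated in the class other. Tpm2 had 88.9% of its UMIs there. Filip1l had 63.4% there and 26.4% in microglia, where 16.1% of 853 cells held a UMI. Csrp1 differed most from the rest: only 7.95% of its UMIs were in the class other, 45.6% were in the class labelled olig precursor and 39.7% in astrocytes. In the class labelled olig precursor, Csrp1 was seen in 89.4% of 349 cells at 2273 CPM (a gene's UMIs scaled to a fixed total of the class in a mouse or group), with 1908 to 2735 CPM over the 9 mice that had 10 or more of these cells. In astrocytes it was seen in 63.0% of 1574 cells at 631 CPM.

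**Figure D1:**
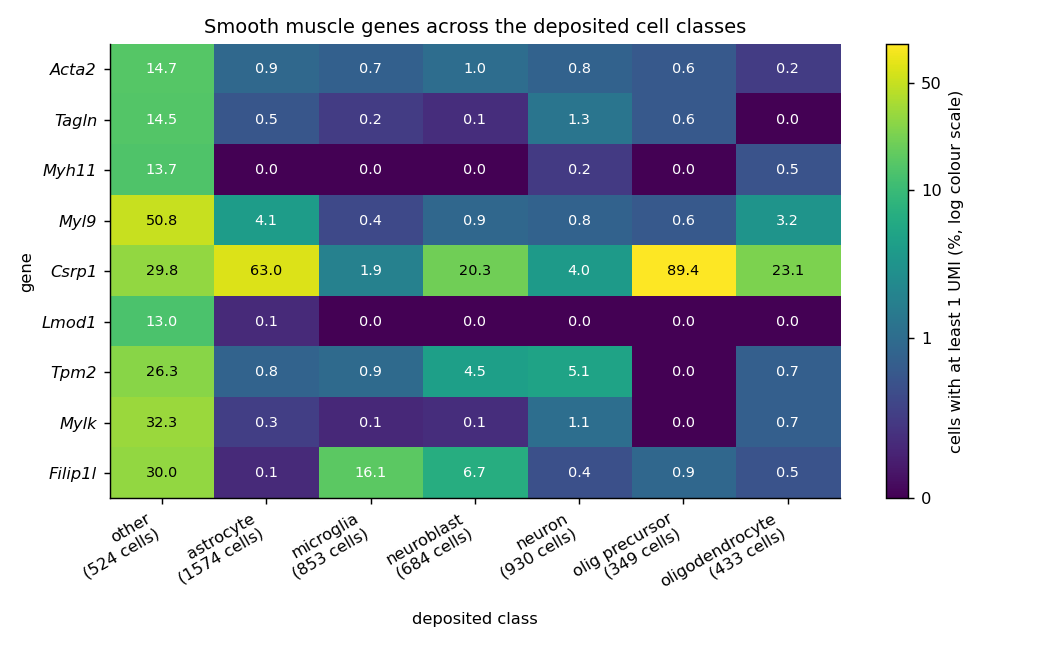
Share of cells with at least 1 UMI of each gene (rows) in each deposited class (columns), in percent, with the colour on a log scale and the number of cells under each class. Acta2, Tagln, Myh11 and Lmod1 stay near 0 outside the class other, whereas Csrp1 reaches 89.4% in the class labelled olig precursor and 63.0% in astrocytes.

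Within the class other the genes except Myl9 were seen in a minority of cells. All were at a share well above that in neurons, which should lack most of them. Acta2 was seen in 14.7% of the 524 cells (95% exact binomial interval 11.8 to 18.0, counting error only) and in 0.753% of 930 neurons. Myh11 was seen in 13.7% against 0.215%, and Lmod1 in 13.0% against 0 of 930 neurons (exact 95% interval up to 0.396%). Myl9 was the most widespread, in 50.8% against 0.753%. Median depth was lower in the class other (2273.5 UMIs per cell) than in neurons (3401.5 UMIs), so the class other was the shallower of the 2.

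The genes occurred together in the same cells. Of the 524 cells, 166 had none of the 9 genes and 253 had 1 to 3. Another 44 had 4 to 6, and 61 had 7 to 9, of which 43 had all 9. The lowest count was at 6 genes (6 cells), between the many cells with few genes and the cells with nearly all. Acta2 and Tagln shared 63 cells, which were 81.8% of the Acta2 cells and 82.9% of the Tagln cells. Over the 524 cells the Pearson correlation of their log levels was 0.91, and it was 0.88 for Acta2 with Myh11, as a description of cells that also share depth. Csrp1 followed the others least, with 0.21 against Myl9 and 0.31 against Filip1l.

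A contractile cell was defined as a cell of the class other with at least 4 of the 9 genes, which held for 105 of 524 cells (20.04%). The name stands for this count of genes only. The cut is a range and not a type: 60 cells had exactly 3 genes and 29 had exactly 4. Outside the class other, 3 of 1574 astrocytes and 1 of 930 neurons reached it, and none in the remaining 4 classes. Markers that the rule did not use differed within the contractile cells. In the 61 cells with 7 to 9 genes, the 4 smooth muscle markers outside the list (Cnn1, Des, Pln, Sncg) summed to 2143 CPM, with 10 pericyte markers at 7958 CPM and 10 endothelial markers at 6971 CPM. In the 44 cells with 4 to 6 genes, the same sums were 151 CPM, 15811 CPM and 15000 CPM. In the 253 cells with 1 to 3 genes, which are not contractile by the rule, they were 82.0 CPM, 13094 CPM and 15498 CPM. By these sums the cells with 4 to 6 genes lay nearer to those with 1 to 3 than to those with 7 to 9. Acta2 was at 9056 CPM in the cells with 7 to 9 genes and 228 CPM in those with 4 to 6. Every one of the 105 cells held at least 2 pericyte markers, and 56.2% held at least 2 endothelial markers, so the cells were mixed in their marker content. Of the 10 endothelial and 10 pericyte markers none was at 0 in the contractile cells. The class other as a whole is a vascular mixture by its markers, with 71.1% of the cells that are not contractile holding at least 2 endothelial markers.

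Contractile cells held more UMIs than the rest of the class, and the groups differed in this. The median was 9190 UMIs in 33 placebo cells, 4564.5 UMIs in 32 haloperidol cells and 4204.5 UMIs in 40 olanzapine cells. The rest of the class had medians of 1953 UMIs (placebo), 1923.5 UMIs (haloperidol) and 1973 UMIs (olanzapine). A deeper cell shows more genes, so shares are given below both as counted and after cells were thinned at random to 1500 UMIs. Thinning left out the cells under 1500 UMIs, 55 of 176 in placebo, 30 of 143 in haloperidol and 50 of 188 in olanzapine, so the thinned values differ from the counted ones in depth and in the cells used. The part of depth in the drug differences was not tested beyond that.

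The number of contractile cells did not separate the groups. The share of the class other that was contractile was 15.9%, 34.6%, 8.70%, 13.0% and 24.3% in placebo 1 to 5. In haloperidol 2 to 5 it was 41.7%, 21.7%, 16.7% and 10.0%, and in olanzapine 2 to 5 it was 16.7%, 18.9%, 11.1% and 29.6%. The ranges of all 3 groups overlap. The means were 19.3% ± 10.3 (SD, n = 5) in placebo, 22.5% ± 13.6 (SD, n = 4) in haloperidol and 19.1% ± 7.76 (SD, n = 4) in olanzapine. After thinning they were 12.8% ± 4.90 (SD, n = 5), 21.2% ± 10.2 (SD, n = 4) and 17.9% ± 14.7 (SD, n = 4), still overlapping. In olanzapine 2 the share was 16.7% of 12 cells as counted and 0% of the 10 cells left after thinning, 2 having been too shallow (exact 95% interval up to 30.9%). With at least 7 of the 9 genes required, a cut added after the counts were seen, the means were 8.96% ± 5.61 (SD, n = 5), 16.5% ± 11.3 (SD, n = 4) and 10.5% ± 8.33 (SD, n = 4). Without haloperidol 2, the difference of haloperidol from placebo at the cut of 4 genes went from 3.20 to -3.18 percentage points. As a share of all cells of a mouse, contractile cells were 2.49% ± 1.83 (SD, n = 5) in placebo, 2.56% ± 1.69 (SD, n = 5) in haloperidol and 1.58% ± 0.724 (SD, n = 5) in olanzapine.

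**Figure D2:**
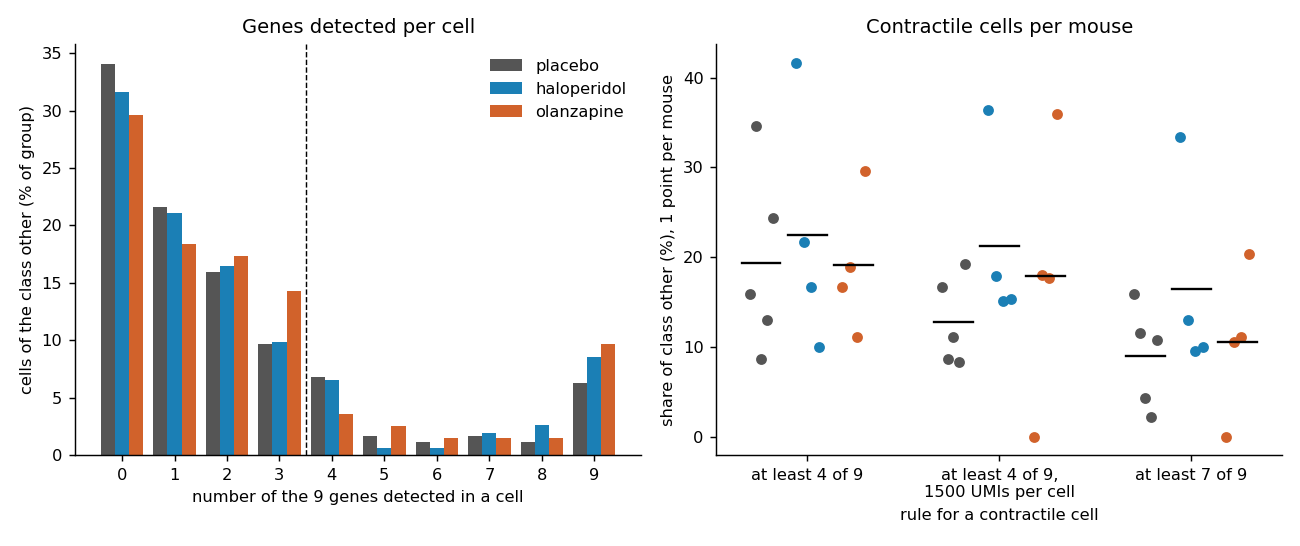
Left, the number of the 9 genes detected in a cell (horizontal axis) against the percent of class other cells of each group (vertical axis), with the cut of 4 genes as a dashed line. Right, the share of contractile cells in each mouse (points) with group means (bars) under 3 rules; the groups overlap under each rule, from 0% in olanzapine 2 to 41.7% in haloperidol 2.

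The levels of the filament genes over all cells of the class other varied widely between mice of a group. Acta2 was at 1829, 625, 267, 337 and 1632 CPM in placebo 1 to 5, at 2722, 1369, 1624 and 2962 CPM in haloperidol 2 to 5, and at 0, 4628, 2355 and 2609 CPM in olanzapine 2 to 5. Olanzapine 2 had no Acta2 UMI among 51697 UMIs, while the other 3 olanzapine mice were above all placebo mice, and the haloperidol mice overlapped the upper placebo mice. Few cells stood behind these values: Acta2 was carried by 7, 2, 2, 3 and 5 cells in the placebo mice, and in placebo 3 and placebo 4 a single cell held 90% and 90.5% of its UMIs. In haloperidol 2 to 5 it was carried by 4, 12, 4 and 3 cells, and in olanzapine 2 to 5 by 0, 17, 3 and 13.

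Tagln was at 838, 199, 173, 96.4 and 796 CPM in placebo, at 1350, 925, 699 and 1236 CPM in haloperidol, and at 19.3, 1675, 1333 and 1168 CPM in olanzapine. Its lowest value, in olanzapine 2, was a single UMI, and the groups overlapped. Tpm2 ranged from 40.0 to 490 CPM in placebo, from 373 to 765 CPM in haloperidol and from 77.4 to 1226 CPM in olanzapine, again with overlap. Lmod1 was at 90.03, 44.7, 53.4, 32.1 and 64.3 CPM in placebo, at 112, 104, 75.5 and 93.3 CPM in haloperidol, and at 0, 152, 164 and 161 CPM in olanzapine. Its placebo values rested on 4 to 16 UMIs per mouse. Olanzapine 3, 4 and 5 lay above every other mouse and olanzapine 2 below every other.

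Of the myosin genes, Myh11 was at 225, 89.3, 133, 56.2 and 225 CPM in placebo, at 697, 260, 246 and 257 CPM in haloperidol, and at 19.3, 427, 475 and 245 CPM in olanzapine. All 4 haloperidol mice were above all placebo mice, and olanzapine 2 was below them. Myl9 was at 1491, 1027, 1108, 1446 and 1898 CPM in placebo, at 2835, 1954, 2021 and 1236 CPM in haloperidol, and at 870, 3417, 3067 and 2672 CPM in olanzapine. Myl9 was carried by more cells than the other genes, 13 to 21 per placebo mouse, with a mean of 1394 ± 347 CPM (SD, n = 5) there, and the olanzapine mice lay on both sides of that range. Mylk ranged from 153 to 442 CPM in placebo, from 340 to 945 CPM in haloperidol and from 96.7 to 597 CPM in olanzapine, with overlap.

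Of the genes shared with other classes, Filip1l was at 124, 179, 133, 56.2 and 193 CPM in placebo, at 382, 236, 208 and 210 CPM in haloperidol, and at 96.7, 266, 602 and 434 CPM in olanzapine. The haloperidol mice were all above the placebo mice, and so were olanzapine 3 to 5. Csrp1 was at 231, 139, 160, 217 and 289 CPM in placebo, at 247, 283, 293 and 257 CPM in haloperidol, and at 116, 551, 402 and 434 CPM in olanzapine. Olanzapine 2 was again the lowest of the 13 mice for Csrp1, and the 3 others the highest.

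**Figure D3:**
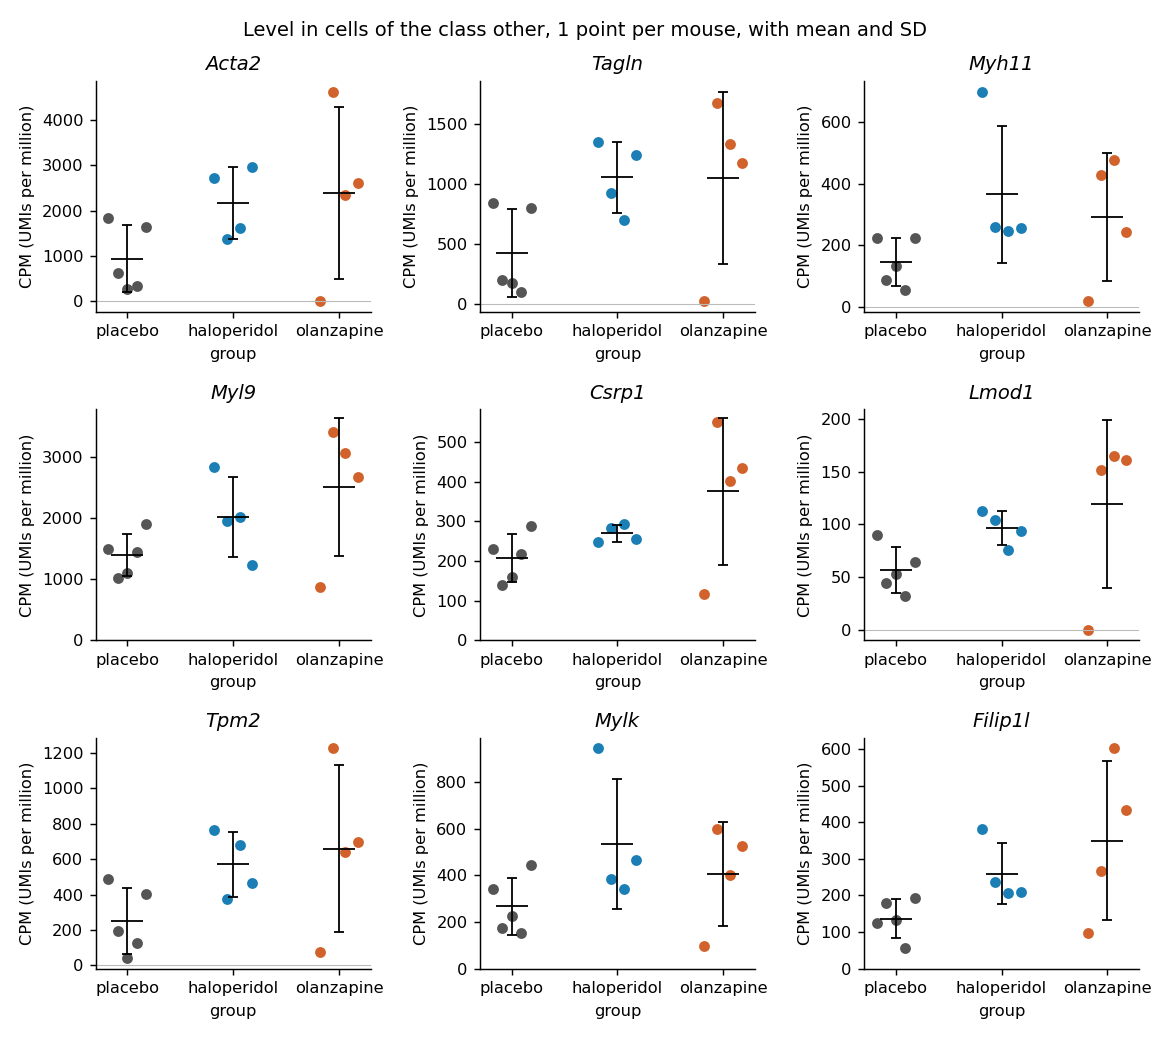
Level of each gene in the class other (vertical axis, CPM, UMIs of the gene scaled to a fixed total of the class) in each mouse (points) by group (horizontal axis), with the group mean and SD. One olanzapine mouse, replicate 2, is at or near the bottom of every panel, with 0 CPM of Acta2 and of Lmod1.

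As fold changes of olanzapine over placebo on the log2 scale, the fitted values were 1.37 ± 0.87 (SE) for Acta2, 1.34 ± 0.77 (SE) for Tagln, 1.43 ± 0.63 (SE) for Tpm2 and 1.19 ± 0.40 (SE) for Lmod1. They were 1.07 ± 0.56 (SE) for Myh11, 0.86 ± 0.32 (SE) for Myl9 and 0.70 ± 0.43 (SE) for Mylk. Filip1l was at 1.31 ± 0.37 (SE) and Csrp1 at 0.95 ± 0.29 (SE). All 9 were positive, with a median of 1.19 against -0.0029 over the 2753 genes tested, of which 49.4% were positive; these are the values that chose the genes. In the fit, 1 of the 2753 genes was called at an adjusted p under 0.05 (0.0363%), and 195 genes had an unadjusted p under 0.05; the called gene was none of the 9. Groups that do not overlap, with every olanzapine mouse above every placebo mouse, were found in 1.16% of the genes and in 0 of the 9.

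Haloperidol was compared with the same placebo mice, and its earlier results were known when the genes were chosen, so it is no independent support. Fold changes over placebo on the log2 scale were 1.15 ± 0.89 (SE) for Acta2, 1.24 ± 0.80 (SE) for Tagln, 1.07 ± 0.66 (SE) for Tpm2 and 0.69 ± 0.45 (SE) for Lmod1. They were 1.19 ± 0.58 (SE) for Myh11, 0.51 ± 0.32 (SE) for Myl9, 0.89 ± 0.45 (SE) for Mylk, 0.82 ± 0.39 (SE) for Filip1l and 0.38 ± 0.31 (SE) for Csrp1. Without haloperidol 2, which had 12 cells, Myh11 was at 0.77, Myl9 at 0.31 and Mylk at 0.51, with a median of 0.64 over the 9, and without placebo 2 Csrp1 was at 0.25. None of the 9 passed the edgeR quasi-likelihood test (adjusted p = 0.9998 for each), while 1 of 2753 genes did (0.0363%), and 110 genes had an unadjusted p under 0.05. DESeq2 called 2 of the 2753 genes (0.0726%), with no member among them. The 9 values were positive, with a median of 0.89 against -0.0057 over all genes, of which 49.0% were positive. Myh11 and Filip1l were the 2 of 9 whose haloperidol mice all lay above the placebo mice, against 0.509% of all genes. Between the drugs, 2 of the 9 genes (Myh11, Mylk) were higher with haloperidol and 7 with olanzapine, with a median of -0.35 for haloperidol over olanzapine and an adjusted p of 0.9986 for each in edgeR. No gene was called in that comparison (0% of 2753) by edgeR or DESeq2, and 114 had an unadjusted p under 0.05. The SE of these 9 values was 0.31 to 0.93, and the misses do not show that the drugs act alike.

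The olanzapine values and calls depended on which cells were kept. With the 211 copied cells kept and doublet calls removed, which drops olanzapine 2 from the class other, 10 of 3202 genes were called (0.312%), 4 of the 9 genes among them, and Acta2 was at 1.89, Tagln at 1.85 and Filip1l at 1.52. With the copies left out and doublet calls removed, 0 of 3031 genes were called by edgeR (0%), with 221 at an unadjusted p under 0.05. With the copies kept and doublet calls kept, 5 of 2744 genes were called (0.182%) and none of the members. With at least 20 cells per mouse, which drops olanzapine 2 and haloperidol 2, 5 of 2882 were called (0.173%) with 3 members among them, and without a filter on low counts 23 of 14062 (0.164%) with 1 member. DESeq2 called 2 of 2753 (0.0726%) and none of the 9. These counts repeat the contrast that chose the genes and are no test of them. The 9 fold changes stayed positive in all of these settings. Without olanzapine 2 alone the median of the members was 1.45, and without olanzapine 3, the mouse with the most cells, it was 0.81, with Acta2 at 0.81, Tpm2 at 0.90 and Mylk at 0.42.

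**Figure D4:**
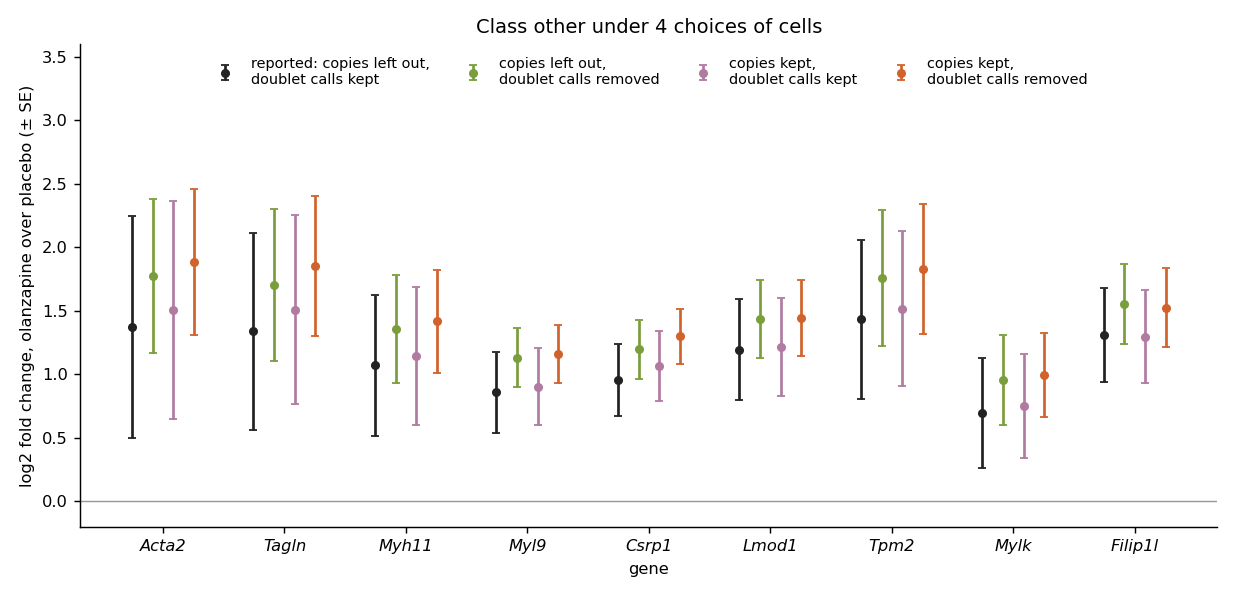
Fold change of each gene, olanzapine over placebo in the class other (vertical axis, log2, with its SE), under 4 choices of cells. All values are above 0, and for Acta2 they run from 1.37 with copies left out and doublet calls kept to 1.89 with copies kept and doublet calls removed.

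To separate the number of carrying cells from the level per carrying cell, the log2 ratio of group means of UMIs per 10000, taken over all cells of the class other, was split into the log2 ratio of the shares of cells with a UMI and a remainder for the level in those cells. For olanzapine over placebo the level part was positive in 9 of 9 genes (median 0.53) and the share part in 7 of 9 (median 0.27). The level part was the larger in all 9. For Lmod1 the share part was -0.06 and the level part 1.03, and for Csrp1 they were -0.27 and 0.43. For Filip1l they were closer, 0.56 and 0.66. For haloperidol over placebo the level part was positive in 9 of 9 (median 0.43) and the share part in 7 of 9 (median 0.43). Acta2 stood out there, with a share part of 0.85 and a level part of 0.14, whereas Mylk had 0.27 and 0.72. As the groups share their placebo mice, the 2 splits are set side by side only.

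The mice behind the split show its limits. Acta2 was seen in 10.5% ± 4.04 (SD, n = 5) of placebo cells, 18.8% ± 10.2 (SD, n = 4) of haloperidol cells and 13.3% ± 10.3 (SD, n = 4) of olanzapine cells. In the cells that had it, the level was 69.5 ± 32.1 UMIs per 10000 (SD, n = 5) in placebo, 82.0 ± 30.7 (SD, n = 4) in haloperidol and 105 ± 31.6 (SD, n = 3, as olanzapine 2 had no such cell) in olanzapine. The level of Lmod1 in carrying cells was 6.11 to 9.16 UMIs per 10000 in 3 olanzapine mice and 3.25 to 4.51 in the placebo mice, on a total of 41 UMIs in placebo. Olanzapine 2 had no cell with Lmod1. At 1500 UMIs per cell the ranges overlapped, with 8.89 to 10.0 in these 3 olanzapine mice and 6.67 to 13.3 in the placebo mice. Myl9 was seen in 48.2% ± 9.58 (SD, n = 5), 47.5% ± 9.99 (SD, n = 4) and 58.1% ± 14.5 (SD, n = 4) of cells in placebo, haloperidol and olanzapine. Its level in them was 27.5 ± 7.91 (SD, n = 5), 34.0 ± 9.58 (SD, n = 4) and 37.1 ± 16.8 (SD, n = 4) UMIs per 10000. A level in carrying cells is bounded from below by 1 UMI, which is worth more per 10000 in a shallow cell. At 1500 UMIs per cell the level part for olanzapine stayed positive in 9 of 9 genes but was the larger part in 4 of 9, with medians of 0.34 for the level and 0.30 for the share. For haloperidol at that depth the medians were 0.16 for the level and 0.67 for the share. From all cells to the deeper cells at equal depth, the genes with the larger level part went from 9 to 4 of 9 for olanzapine. For haloperidol they went from 7 to 4 of 9. For olanzapine the 2 medians at equal depth, 0.34 and 0.30, were close, and the thinning was a single random draw. How far their order depends on that draw was not tested. For haloperidol the 2 medians were both 0.43 over all cells, and the share part was the larger at equal depth. With a cell counted as carrying only from 2 UMIs, the medians were 0.72 and 0.26 for olanzapine and 0.48 and 0.53 for haloperidol.

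**Figure D5:**
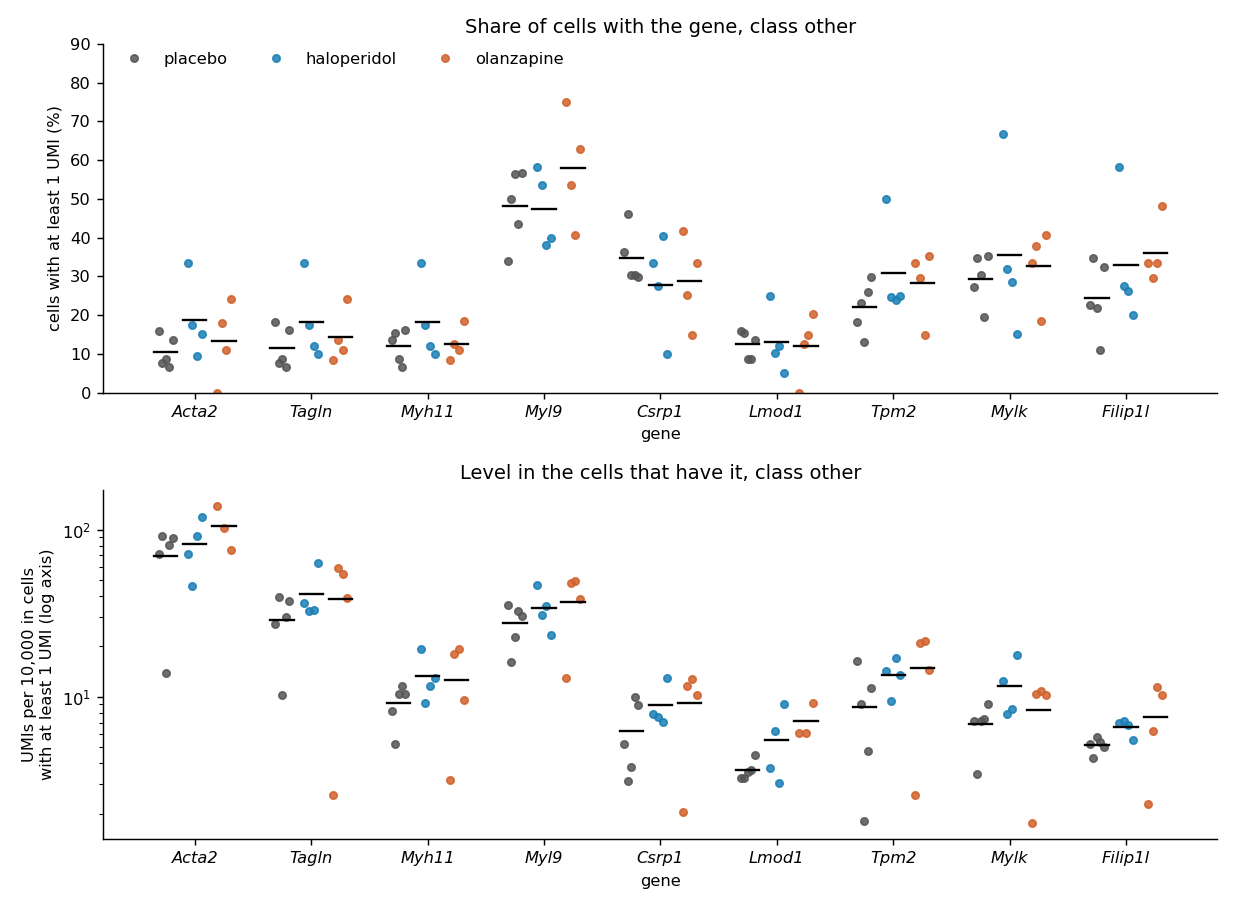
Top, the share of class other cells with at least 1 UMI of each gene (percent). Bottom, the level in those cells (UMIs per 10000, log axis). Points are mice, black bars are group means, and the groups overlap in every gene of the top panel; the lowest points of the bottom panel for Csrp1, Mylk and Filip1l are olanzapine 2.

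The level within contractile cells was also taken per mouse, with the cells picked by at least 4 of the other 8 genes so that the gene measured did not pick them. Acta2 was at 2444 ± 1895 CPM (SD, n = 5) in placebo, 7320 ± 4877 CPM (SD, n = 4) in haloperidol and 7666 ± 6431 CPM (SD, n = 4) in olanzapine. Its ranges overlapped, at 904 to 5496 CPM in placebo, 3198 to 14351 CPM in haloperidol and 0 to 15164 CPM in olanzapine. The picked cells were few, 2 to 9 per mouse in placebo, 2 to 15 in haloperidol and 2 to 17 in olanzapine. Haloperidol 5 had the highest haloperidol value, 14351 CPM, on 2 cells. Myl9 was at 2505 ± 1003 CPM (SD, n = 5), 5176 ± 964 CPM (SD, n = 4) and 6012 ± 3936 CPM (SD, n = 4). Its range was 1102 to 3822 CPM over the placebo mice, 4117 to 6311 CPM over the haloperidol mice and 1027 to 9741 CPM over the olanzapine mice. The share of all genes with such a gap between haloperidol and placebo was not computed for picked cells. Nothing is therefore read from the gap. For Myl9 the picked cells were 2 to 7 per placebo mouse, 2 to 10 per haloperidol mouse and 1 to 14 per olanzapine mouse. Levels in picked cells were not taken at equal depth, and contractile cells were deepest in placebo. The part of depth and cell number in them was not tested. In the rest of the class other Myl9 was at 946 ± 442 CPM (SD, n = 5), 855 ± 339 CPM (SD, n = 4) and 1098 ± 219 CPM (SD, n = 4), and the groups overlapped. Csrp1 in the rest of the class was at 157 ± 29.8 CPM (SD, n = 5), 91.5 ± 95.8 CPM (SD, n = 4) and 83.0 ± 42.8 CPM (SD, n = 4). Its ranges there overlapped, at 116 to 195 CPM, 0 to 218 CPM and 24.0 to 117 CPM. In contractile cells Csrp1 was at 282 ± 154 CPM (SD, n = 5), 724 ± 385 CPM (SD, n = 4) and 1056 ± 725 CPM (SD, n = 4). These cells were picked by 8 genes; of those picked by all 9, in the compared mice 16 of 33 in placebo, 19 of 29 in haloperidol and 24 of 39 in olanzapine had 7 to 9 genes.

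Marker sums of the other vascular cells in the class other overlapped between the groups, with pericyte markers at 4490 to 13575 CPM in placebo, 5084 to 11332 CPM in haloperidol and 8550 to 12762 CPM in olanzapine. Endothelial markers were at 11836 to 21259 CPM, 11940 to 20133 CPM and 10073 to 19425 CPM. The 4 smooth muscle markers outside the list moved with the members, at 145 to 499 CPM in placebo, 444 to 793 CPM in haloperidol and 96.7 to 891 CPM in olanzapine, lowest in olanzapine 2. The part of the cell mixture in the members' values was not tested.

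Over all cells of a mouse, classes pooled, the fitted values for olanzapine over placebo ran from -0.32 to 0.44 and those for haloperidol from 0.11 to 0.94. This fit used all 5 mice of each group, so it is not like for like with the class other. The class other made up a mean of 11.9% of cells in placebo, 10.1% in haloperidol and 8.81% in olanzapine. The part of these shares in the pooled values was not tested. Acta2 was at a log2 fold change of 0.22 ± 0.73 (SE) for olanzapine over placebo, Myl9 at -0.24 ± 0.36 (SE) and Mylk at -0.32 ± 0.45 (SE). For haloperidol over placebo, Myh11 was at 0.94 ± 0.53 (SE; edgeR adjusted p = 0.701), and no member and no gene of the 10665 tested was called (0%), with 807 at an unadjusted p under 0.05. In the other classes Csrp1 could be tested in astrocytes, where haloperidol differed from placebo by -0.11 ± 0.21 (SE) and olanzapine by -0.35 ± 0.22 (SE) on the log2 scale. In the class labelled olig precursor, which holds the largest share of its UMIs, olanzapine differed from placebo by -0.05 ± 0.23 (SE). The edgeR adjusted p was 0.9996 or more in each of these 3 comparisons. No gene was called in them (0%), with 141, 99 and 57 genes at an unadjusted p under 0.05. Csrp1 was also tested in neuroblasts, at -0.41 ± 0.31 (SE) for haloperidol and -0.22 ± 0.29 (SE) for olanzapine, and in the class labelled oligodendrocyte, at 0.13 ± 0.38 (SE) and -0.10 ± 0.39 (SE), with an edgeR adjusted p of 0.999 or more in each. Filip1l in microglia was at 0.56 ± 0.38 (SE) for olanzapine and 0.49 ± 0.46 (SE) for haloperidol (edgeR adjusted p = 0.99993 and 0.913).

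Other genes of smooth muscle were read from 2 lists. Of 33 further contractile and cytoskeletal genes, 23 could be tested in the class other. Of these, 19 were positive for olanzapine over placebo (median 0.55), against 49.4% of the 2753 genes tested. For haloperidol 18 were positive (median 0.35), against 49.0%. None was called, against 0.0363% of all genes in each comparison, so this says little about the 23. Several ran with the members over the same mice, as given below, so the list is no separate observation. Crip1, a LIM-domain protein, was at 0.60 ± 0.43 (SE) and 0.80 ± 0.44 (SE), and Myl6, the essential light chain, at 0.21 ± 0.20 (SE) and 0.19 ± 0.20 (SE). Actb, the actin of all cells, was at -0.11 ± 0.23 (SE) and -0.61 ± 0.24 (SE). Of 21 transcriptional regulators 10 were tested, with medians of 0.02 for olanzapine and -0.01 for haloperidol. The highest 4 by CPM in the class other were Hes1, Klf4, Mef2c and Notch3, a receptor of mural cells. Hes1 was at 0.08 ± 0.26 (SE) and -0.02 ± 0.26 (SE), and Klf4 at 0.01 ± 0.44 (SE) and -0.12 ± 0.47 (SE). Mef2c was at 0.38 ± 0.28 (SE) and 0.29 ± 0.29 (SE), and Notch3 at 0.03 ± 0.31 (SE) and -0.22 ± 0.33 (SE). No gene of that list was called either.

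The genes whose levels ran most like the mean of the 9 were found by Pearson correlation, as a description over 13 mice that differ in depth and cell mixture. They were Tpm1 (0.98), Crip1 (0.94), Ppp1r12a (0.92), Rock1 (0.91), Sncg (0.90), Des (0.90), Mustn1 (0.89) and Pln (0.89). Over the 524 cells they were Sncg (0.84), Nrip2 (0.83), Mustn1 (0.81), Pln (0.80), Palld (0.78), Pdlim3 (0.78), Fbxl22 (0.75) and Fxyd1 (0.74). Sncg, Mustn1 and Pln are in both lists. Pln, phospholamban, which regulates the calcium pump of muscle, had 211 UMIs in the 105 contractile cells and 0 in the other 419 cells of the class.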

How the data were processed

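The deposited table holds UMI counts, whole numbers per gene and cell, made by the authors with Cell Ranger and Seurat on build mm10 per the submitters' processing notes, which give no versions here. Mouse, drug and class are lines of that table, and the drug matched the labels for all cells. Cells over 20% mitochondrial UMIs (23) were removed. Leaving out the copied cells of placebo 5 and keeping the 81 doublet calls (Scrublet, scanpy 1.11.5) were decided after the barcodes and doublet calls were seen and before the members' values under these choices were computed. Counts were summed per mouse and class (at least 10 cells, 3 mice per group) and fitted with all groups together in edgeR 4.0.16 (R 4.3.3: filterByExpr, TMM, robust quasi-likelihood F test, two-sided, Benjamini-Hochberg per class and comparison, threshold 0.05). Mice are separate animals. The SE beside an edgeR fold change was derived as the absolute log2 fold change divided by the square root of its F statistic. CPM values per mouse are UMIs scaled to the total of the class, without TMM. DESeq2 1.42.0, other scaling, filters, cell minimums and each mouse left out were alternatives. The fit was also run on simulated counts. These do not copy genes carried by few cells, so that run does not show how the fit behaves for the 9. Members and lists were chosen with earlier results of these data known. The named genes are the 9 members, the 8 most correlated genes over mice and over cells, and from the highest 4 of each reported list those printed. One further gene list is not reported here.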

Additional observations from a re-analysis of the deposited data

Results flagged for a closer look

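In 8 of 84 groups looked at, 1 mouse stood far from the others by Dixon's criterion at 95%. The criterion was applied to groups of 4 or 5 mice. The levels of Acta2 and Lmod1 in carrying cells had only 3 olanzapine mice and were not tested there. Chance alone sets 1 mouse apart in about 1 group in 20, and no cause was tested. In haloperidol 2, which had 12 cells of the class other, Myh11 was at 697 CPM (next 260 CPM), Filip1l at 382 CPM (next 236 CPM), and Tpm2 was seen in 50% of cells (next 25%). In olanzapine 2, also with 12 cells, Lmod1 was at 0 CPM (next 152 CPM) and the level of Mylk in carrying cells was 1.76 UMIs per 10000 (next 10.3). In haloperidol 5 the level in carrying cells was 62.7 UMIs per 10000 for Tagln (next 36.3) and 12.9 for Csrp1 (next 7.92), each in 2 cells. In placebo 3 the level of Acta2 in its 2 carrying cells was 13.9 UMIs per 10000 (next 71.9).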

How the results depend on the processing

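Keeping doublet calls, listed as an alternative to removing them, is the reported setting. Genes called in the class other for olanzapine over placebo, 1 as reported, were 2 with DESeq2, 23 without a filter on low counts, 5 with at least 20 cells per mouse, 0 with doublet calls removed, 5 with copied cells kept, 10 with both, and 0 to 3 with 1 mouse left out. For haloperidol over placebo, 1 as reported, they were 2 with DESeq2, 5 without the filter, 2 with copied cells kept, 2 with both, and 0 to 1 with 1 mouse left out (0 without haloperidol 3 or 4). For haloperidol over olanzapine, 0 as reported, 1 was called without the filter. The members' fold changes over placebo stayed positive for both drugs in all 16 alternatives. Between the drugs, 5 changed sign; the cause was not tested. Myh11 went to -0.60 with at least 20 cells, -0.19 with doublet calls removed and -0.19 with both; Mylk went to -0.46, -0.0988 and -0.0992. With 1 mouse left out the ranges were -0.64 to 0.34 for Acta2, -0.48 to 0.26 for Tagln, -0.32 to 0.45 for Myh11, -0.69 to 0.17 for Tpm2 and -0.21 to 0.48 for Mylk. The difference in contractile share from placebo ranged from -3.74 to 6.98 percentage points for olanzapine and from -3.18 to 9.02 for haloperidol. Each moved from its reported value of -0.23 and 3.20 by less than the pooled SD of the mice as counted, 9.29 and 11.8 points. No paired analysis was possible because replicate numbers follow the order of deposit and pair no mice. With 12 to 95 cells per mouse, counts of 0 to 17 carrying cells limit every value of Acta2.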
